A study of Mus musculus with 12 samples.

Results

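Trpv4, Trpm3 and 6 calcium pump genes (Atp2a2, Atp2a3, Atp2b1, Atp2b2, Atp2b3 and Atp2b4) were followed through the development of the mouse choroid plexus, a vascularised sheet of secretory epithelium in the brain ventricles and the main source of cerebrospinal fluid. These 8 genes, of 52459 in the table, were chosen by name for their roles in moving calcium across membranes. The RNA came from choroid plexus of B6 mice at 4 ages: E12.5 (an embryonic stage), P0 (birth), P14 (postnatal day 14) and A6m (adults of 6 months), with 3 libraries per age. RNA was taken up in Trizol, and messenger RNA libraries (Kapa mRNA HyperPrep) were read as 100 bp paired ends. The design text gives 3 or 4 independent specimens per datapoint, and does not say whether an embryonic specimen held tissue of more than 1 animal. Neither sex nor ventricle is given by the labels, and the Foxj1 mutant tissue of the series was not analysed here.

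Calcium enters a cell through channels and is removed by pumps that spend ATP. Trpv4 is a calcium-permeable channel opened by cell swelling, warmth and lipid mediators, and it is known in the choroid plexus as a regulator of ion and fluid transport across the epithelium. Trpm3 is a calcium-permeable channel opened by heat and by the steroid pregnenolone sulfate. The Atp2a genes encode the SERCA pumps, which refill the endoplasmic reticulum. The Atp2b genes encode the plasma membrane calcium pumps, or PMCAs, which push calcium out of the cell and are stimulated by calmodulin.

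Levels are in TPM, an abundance adjusted for transcript length, so genes can be set side by side. A gene was tested when it reached 1 TPM in at least 3 libraries, which left 17422 genes and kept all 8. Differences are later minus earlier age in log2(TPM + 1), a scale that understates changes of low genes, with the standard error (SE) and the adjusted p of limma over all tested genes. Rose and fell mark an adjusted p under 0.05. The comparisons share libraries with one another and are not independent.

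Trpv4, Trpm3, Atp2a3, Atp2b2 and Atp2b3 were higher at P0 than at E12.5 by the values as deposited, with Trpv4 and Atp2b3 low in the embryo and far more abundant from birth on. Atp2b4 fell after birth, Atp2b1 was lower at the later ages in the values as deposited, and Atp2a2 passed the test in no comparison of the 12 libraries as deposited. The number of the 8 genes that rose was 5 in P0 against E12.5, where 18.6% of all tested genes rose, while 0 of the 8 fell, where 43.7% of all did. In P14 against P0, 1 rose and 2 fell, where 5.33% of all tested genes rose and 53.5% fell. In A6m against P14, 1 rose and 1 fell, with 8.78% and 12.1% of all genes doing so. P14 against E12.5 gave 5 that rose and 2 that fell (13.4% and 62.1% of all tested genes). A6m against P0 gave 2 of each (9.78% rose and 54.6% fell among all tested genes). A6m against E12.5 gave 5 that rose and 2 that fell, beside 15.2% and 62.0% of all tested genes. Over the 4 ages together, 7 of the 8 passed the moderated F-test, as did 85.1% of all tested genes, so that passing it says little about these genes. The middle steps leaned on the embryonic libraries, which enter the shared spread: without E12.5 replicate 1, 5 of the 8 passed in P14 against P0 and 4 in A6m against P14, and without E12.5 replicate 3, 5 passed in P14 against P0.

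Counted in either direction, 5 of the 8 passed in P0 against E12.5 (62.3% of all tested genes), 3 in P14 against P0 (58.8%) and 2 in A6m against P14 (20.9%). The wider comparisons gave 7 in P14 against E12.5 (75.5%), 4 in A6m against P0 (64.4%) and 7 in A6m against E12.5 (77.2%). The libraries of the ages did not overlap for 6 of the 8 in P0 against E12.5 (62.7% of all tested genes), 6 in P14 against P0 (69.3%) and 4 in A6m against P14 (44.3%). They did not overlap for 7 in each of P14 against E12.5 (75.3%), A6m against P0 (73.7%) and A6m against E12.5 (76.9%). The share of the 8 that passed in either direction was thus near that of all tested genes in P0 against E12.5.

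The scale on which the libraries are set side by side matters for the small changes. TPM has the same sum in every library, and the median tested gene differed by -0.27 in P0 against E12.5, -0.41 in P14 against P0, -0.04 in A6m against P14 and -0.71 in A6m against E12.5. Mitochondrially encoded genes held 11.2% to 17.7% of the summed TPM at E12.5, 19.9% to 22.4% at P0, 28.7% to 32.6% at P14 and 31.3% to 34.0% at A6m, and the part of this share in the shift was not tested. After scaling by the median of ratios, which brings the median gene close to 0, the 8 genes gave 6 that rose and 0 that fell in P0 against E12.5, 4 and 1 in P14 against P0, 2 and 2 in A6m against P14, and 6 and 1 in A6m against E12.5. The share of all calls that were higher was 48.3% after scaling and 29.8% as deposited in P0 against E12.5, 53.4% and 9.06% in P14 against P0, 52.0% and 42.0% in A6m against P14, and 49.7% and 19.7% in A6m against E12.5. It was 49.0% and 17.7% in P14 against E12.5 and 52.3% and 15.2% in A6m against P0, where 7 of the 8 rose and 1 fell, and 6 rose and 1 fell, after scaling. Scaled differences are therefore given beside some of those as deposited. A difference given alone is as deposited, and its size may change with the scale. The shares of all tested genes that rose or fell are given as deposited only. They are not a match for counts after scaling.

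The tissue label was checked against its markers. The 11 epithelial markers other than Ttr summed to 1703 to 2792 TPM at E12.5, 7439 to 7744 at P0, 25592 to 28612 at P14 and 33224 to 35846 at A6m, and all 12 epithelial markers, the transthyretin gene Ttr included, were above 0 in every library. At P14 and A6m most of the sum without Ttr was Enpp2, which encodes autotaxin and was at 262 to 441, 2992 to 3211, 21280 to 24038 and 27974 to 30355 TPM at the same ages. The other 10 markers summed to 1441 to 2351, 4439 to 4538, 4311 to 4574 and 5222 to 5491 TPM. Of the 12, 11 rose and 0 fell in P0 against E12.5, 5 rose and 4 fell (Aqp1, Otx2, Clic6 and Slc4a5) in P14 against P0, with 6 and 1 after scaling, and 3 rose and 2 fell in A6m against P14. Endothelial markers summed to 468 to 512, 244 to 332, 91.8 to 121 and 27.9 to 44.4 TPM at the same ages. Fibroblast markers summed to 1003 to 1337, 581 to 599, 264 to 309 and 166 to 237 TPM. Macrophage markers ran lower and also declined, with sums of 135 to 170, 76.8 to 86.1, 34.9 to 36.6 and 16.2 to 27.8 TPM. In bulk tissue, fewer cells of a type and less RNA per cell cannot be told apart, and the part of tissue composition in the results below was not tested.

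A pair of features of single libraries also touches the results. E12.5 replicate 1 had the lowest epithelial sum without Ttr of its age (1703 TPM, against 2150 and 2792 TPM) and the highest sum of platelet markers (335 TPM, against 224 and 241 TPM). It also held the lowest value of 7 of the 8 genes among the E12.5 libraries, Atp2a3 being the exception. Xist, which is transcribed from an inactive X chromosome, was at 139, 0.389 and 89.5 TPM at E12.5, 0.430 to 0.689 at P0, 0.515 to 0.808 at P14 and 148 to 155 at A6m. Ddx3y on the Y chromosome was at 9.26, 54.4 and 50.9 TPM at E12.5, 108 to 117 at P0, 80.1 to 93.2 at P14 and 0.122 to 0.366 at A6m. By these transcripts the A6m libraries differ in sex from those of P0 and P14, so sex and age cannot be told apart in comparisons of A6m with either age. E12.5 replicates 1 and 3 held both transcripts, and replicate 2 held Ddx3y with Xist at 0.389 TPM. As a group the E12.5 libraries thus differ from each later age in these transcripts. The part of sex in comparisons with E12.5 was not tested.

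Trpv4 (ENSMUSG00000014158.12, GRCm38 chr5:114622152-114658421, minus strand, positions from GENCODE M21) was the member with the steepest change in log2(TPM + 1). Its levels were 0.616, 1.15 and 1.16 TPM in the E12.5 libraries, 46.4, 45.7 and 41.0 at P0, 84.1, 79.6 and 85.8 at P14, and 91.8, 85.4 and 87.4 at A6m. Every library after E12.5 lay far above the E12.5 libraries, the P14 and A6m libraries all lay above those of P0, and P14 and A6m overlapped.

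The means were 0.974 ± 0.311, 44.4 ± 2.99, 83.2 ± 3.19 and 88.2 ± 3.27 TPM (SD, n = 3 each) in order of age. Among the tested genes, the rank of Trpv4 by level was 16291 in the embryo, and 2883, 1134 and 1043 at P0, P14 and A6m. The level was 45.5-fold higher at P0 than at E12.5 by the ratio of means, a log2 difference of 4.53 (SE 0.11, limma adjusted p = 4.95e-10). Because the E12.5 level is about as large as the added 1 TPM, that difference was 5.42 with 0.1 TPM added and 3.05 with 5 TPM added. The lowest value of Atp2b3 in the same comparison over the alternatives was 3.68. The order of Trpv4 and Atp2b3 thus depends on the added amount.

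The rise went on after birth. At P14 the level was 1.87-fold that at P0 (log2 difference 0.89, SE 0.11, limma adjusted p = 6.99e-05), or 1.40 on the log2 scale after median-of-ratios scaling. A6m against P14 gave 0.08 (SE 0.11, limma adjusted p = 0.655), which passed no test under any alternative. By its F over the 4 ages Trpv4 ranked 18 of the 17422 tested genes. All of its calls held under every alternative tried.

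**Figure D1:**
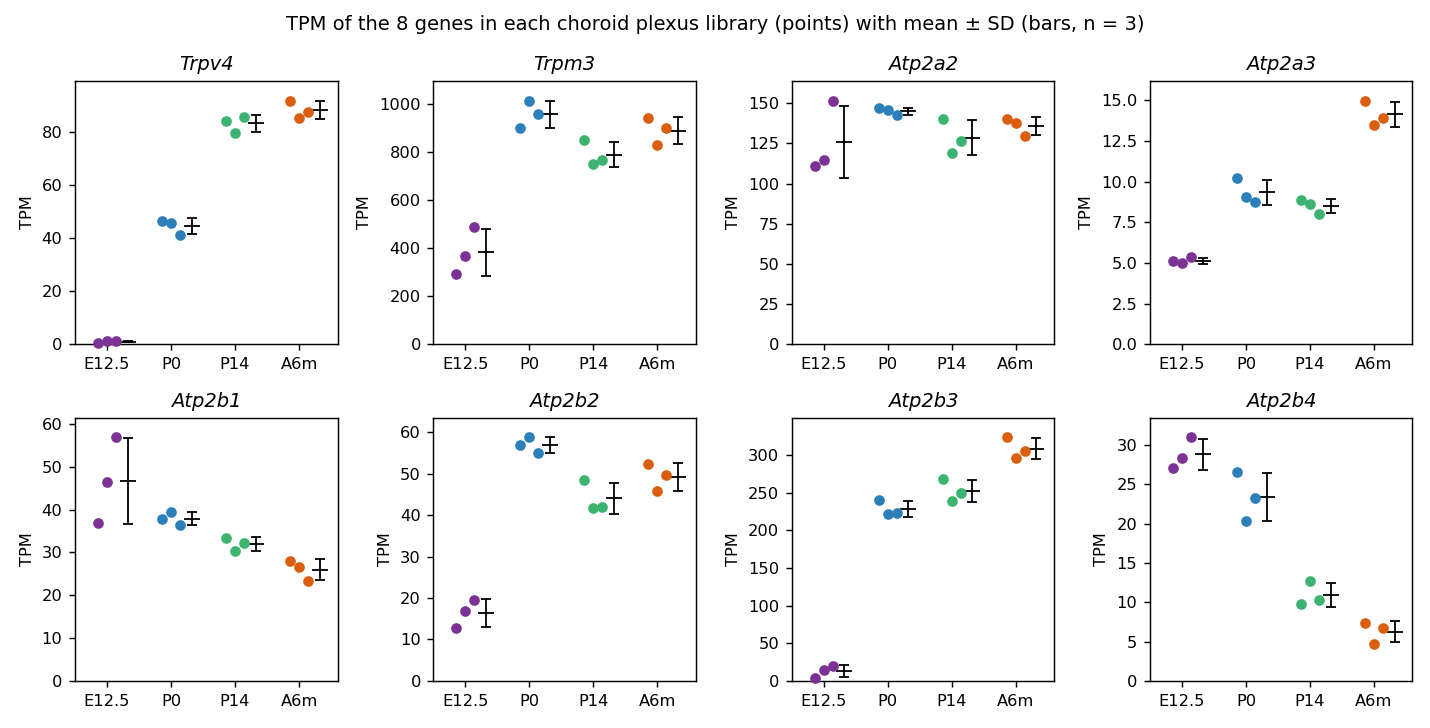
Level of each of the 8 genes in TPM (linear axes, each from 0) in the 12 libraries, by age from E12.5 to A6m; points are libraries, and the black marks with bars are the mean ± SD of 3. Trpv4 and Atp2b3 stand near 0 at E12.5 and high at every later age, Atp2b4 is lowest at A6m, and the Atp2a2 libraries of the 4 ages lie close together.

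For Trpv4 the sequence before the start site is shown, since it is the member whose transcript changed most. It spans the 200 bases that end 51 bases before the start site in the RefSeq table of GRCm38.p6, chr5:114658472-114658671, minus strand, 5′ to 3′. The windows of all members with an entry were searched on both strands for the letters GGGCGG (the GC box), those of the CCAAT box, TATAAA (the TATA box) and TAATCC (the core bound by Otx-type homeodomain proteins). None of them is in the window of Trpv4, and the bases between the window and the start site were not searched.
Trpv4: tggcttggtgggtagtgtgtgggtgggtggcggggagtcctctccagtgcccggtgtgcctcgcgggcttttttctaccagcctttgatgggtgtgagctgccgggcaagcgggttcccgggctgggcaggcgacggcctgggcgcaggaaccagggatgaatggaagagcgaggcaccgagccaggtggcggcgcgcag

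Trpm3 (ENSMUSG00000052387.16, chr19:22139046-22995410, plus strand) was abundant at every age. It was at 292, 367 and 486 TPM in the E12.5 libraries, 900, 1013 and 956 at P0, 848, 750 and 768 at P14, and 941, 828 and 897 at A6m. All later libraries lay above those of E12.5, the P14 libraries lay below those of P0, and A6m overlapped both P0 and P14. The E12.5 libraries spread more, relative to their mean, than those of any later age.

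Mean Trpm3 levels were 381 ± 97.6, 956 ± 56.6, 788 ± 52.4 and 889 ± 56.8 TPM (SD, n = 3 each). It ranked 268 by level among the tested genes at E12.5 and 66, 65 and 57 at the later ages. It rose 2.51-fold in P0 against E12.5 (log2 difference 1.35, SE 0.15, limma adjusted p = 1.43e-05). After birth no change passed the test as deposited with all libraries. P14 against P0 gave -0.28 (SE 0.15, limma adjusted p = 0.127) as deposited and 0.24 after scaling. A6m against P14 gave 0.17 (SE 0.15, limma adjusted p = 0.478). The fall in P14 against P0 as deposited was called without E12.5 replicate 1 or 3 (limma adjusted p of 0.0374 and 0.0266). It was also called with only the 6 libraries of P14 and P0 (0.0126). In A6m against P0 the sign also turned with scaling, with -0.11 as deposited (limma adjusted p = 0.548) and 0.46 after scaling (limma adjusted p = 0.00121).

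Both channels rose by P0, and their proportion moved up to P14. There were 320 to 474 Trpm3 transcripts for each Trpv4 transcript in the E12.5 libraries, 19.4 to 23.3 at P0, 8.95 to 10.1 at P14 and 9.70 to 10.3 at A6m. This ratio is taken within a library, so the scale of the library does not enter it. The libraries of E12.5, P0 and P14 did not overlap in it, and those of P14 and A6m did.

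The window before the outermost start site of Trpm3 in RefSeq, chr19:22138796-22138995, plus strand, holds 1 CCAAT, in capitals.
Trpm3: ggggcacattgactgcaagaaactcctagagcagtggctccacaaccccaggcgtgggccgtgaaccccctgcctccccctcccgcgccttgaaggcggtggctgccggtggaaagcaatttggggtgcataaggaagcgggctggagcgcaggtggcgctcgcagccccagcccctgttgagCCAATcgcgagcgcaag
Of the 8 genes, 6 had entries, with 10 start sites between them, and Atp2a2 and Atp2b3 had none. The GC box was in 5 of the 10 windows, CCAAT in 1 and the TATA and Otx-type letters in 0. Among 32817 windows of the same length, 24.6% held the GC box, 28.4% CCAAT, 9.14% the TATA box and 5.22% the Otx-type letters. These matches describe letters only. The windows leave out the bases next to the start site, so the counts cannot tell whether a TATA box lies there.

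Trpm3 also hosts a microRNA gene. Mir204 lies on the same strand at chr19:22750605-22750672, is spanned by 18 of the 24 annotated Trpm3 transcripts and overlaps an exon of 0 of them, so it is intronic. Its mature arms, from RefSeq on GRCm38.p6, are shown because they are read from the same locus as the most abundant channel of the set, with the seed (bases 2 to 8) in capitals.
mmu-miR-204-5p: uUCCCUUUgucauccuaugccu
mmu-miR-204-3p: gCUGGGAAggcaaagggacgu
The 5p arm lies at chr19:22750610-22750631 and the 3p arm at chr19:22750649-22750669, and their seeds differ. The row named Mir204 was at 12.8, 29.7 and 52.5 TPM at E12.5, 103, 101 and 89.1 at P0, 84.6, 128 and 109 at P14, and 49.9, 45.7 and 34.3 at A6m. The P0 and P14 libraries lay above all others, and those of A6m overlapped E12.5. The annotated hairpin is 68 bases long, shorter than a read of 100 bases, and the libraries were not made for small RNA, so this row does not measure the mature microRNA.

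Among the pumps of the plasma membrane, Atp2b3 (PMCA3; ENSMUSG00000031376.15, chrX:73503086-73571005, plus strand) changed most. Its levels were 4.02, 14.5 and 19.5 TPM at E12.5, 240, 222 and 223 at P0, 268, 239 and 250 at P14, and 324, 296 and 306 at A6m. The E12.5 libraries were all low and differed widely among themselves, P0 and P14 overlapped, and every A6m library lay above all P0 and P14 libraries.

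Mean levels of Atp2b3 were 12.7 ± 7.91, 228 ± 10.3, 252 ± 14.7 and 308 ± 14.2 TPM (SD, n = 3 each). It rose 18.0-fold in P0 against E12.5 (log2 difference 4.29, SE 0.38, limma adjusted p = 3.26e-06). Without E12.5 replicate 1, its lowest library, the log2 difference was 3.68, more than 1.5 times smaller as a fold, and still called (limma adjusted p = 1.33e-08).

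Whether Atp2b3 passed the test in A6m against P14 depended on the E12.5 libraries, and in A6m against P0 also on the scale. As deposited and with the spread shared by the 4 ages, A6m against P14 gave 0.29 (SE 0.38, limma adjusted p = 0.669). A6m against P0 gave 0.43 (SE 0.38, limma adjusted p = 0.345). With only the 6 libraries of the comparison, the same differences had limma adjusted p = 0.0165 and 0.000546, and without E12.5 replicate 1 they had 0.0492 and 0.00255. P14 against P0 gave 0.14 (SE 0.38, limma adjusted p = 0.77) as deposited with all libraries. After scaling, also with all libraries, A6m against P0 gave 1.00 and was called (limma adjusted p = 0.02). On that scale A6m against P14 gave 0.34 and P14 against P0 gave 0.66 (limma adjusted p of 0.476 and 0.122). Atp2b3 is X-linked, and Xist gave 148 to 155 TPM at A6m, against under 1 TPM in all P0 and P14 libraries. Sex and age thus cannot be told apart in its differences of A6m from P0 and P14. At E12.5 Xist was at 139, 0.389 and 89.5 TPM, and the part of sex in the rise by P0 was not tested.

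Atp2b2 (PMCA2; ENSMUSG00000030302.16, chr6:113743831-114042613, minus strand), best known from cerebellar neurons and the hair cells of the inner ear, also rose by birth. It was at 12.8, 16.8 and 19.6 TPM at E12.5, 56.9, 58.8 and 55.0 at P0, 48.4, 41.8 and 41.8 at P14, and 52.3, 45.7 and 49.5 at A6m. Every later library lay well above E12.5, and P0 lay above P14 and A6m, which overlapped. The rise in P0 against E12.5 was 3.47-fold (log2 difference 1.75, SE 0.13, limma adjusted p = 6.71e-07). The fall in P14 against P0 (-0.37, SE 0.13, limma adjusted p = 0.0285) was 0.14 after scaling, and its limma adjusted p ran from 0.0032 to 0.615 over the alternatives. It was not called without P0 replicate 1 or 2 or without P14 replicate 2 or 3 (limma adjusted p of 0.0628, 0.08, 0.0868 and 0.0836). A6m against P0 gave -0.21 (limma adjusted p = 0.174, but 0.0438 without E12.5 replicate 1) as deposited and 0.35 after scaling. Neuronal markers summed to 13.7 to 87.1, 17.4 to 29.5, 20.9 to 37.3 and 13.8 to 13.9 TPM over the ages, with the highest sum in E12.5 replicate 2.

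Atp2b1 (PMCA1; ENSMUSG00000019943.10, chr10:98914406-99026143, plus strand), the pump found in nearly all cell types, was at 36.8, 46.5 and 56.9 TPM at E12.5, 37.7, 39.5 and 36.4 at P0, 33.5, 30.2 and 32.2 at P14, and 28.1, 26.5 and 23.3 at A6m. The E12.5 libraries overlapped those of P0, the P14 libraries lay below both, and the A6m libraries lay below all others. No step between neighbouring ages passed the test as deposited (log2 differences of -0.28, -0.24 and -0.29, each with SE 0.13, and limma adjusted p of 0.0915, 0.142 and 0.153). It fell in A6m against E12.5 (-0.81, SE 0.13, limma adjusted p = 0.00017), a difference that was 0.02 after scaling (limma adjusted p = 0.8). After scaling it rose in P14 against P0 (0.26, limma adjusted p = 0.0237) and fell in A6m against P14 (-0.24, limma adjusted p = 0.0464). Without E12.5 replicate 1 all 3 steps were called as deposited (limma adjusted p of 0.00372, 0.0407 and 0.0386).

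Atp2b4 (PMCA4; ENSMUSG00000026463.17, chr1:133699457-133801041, minus strand), known from red blood cells, smooth muscle, endothelium and sperm, was the 1 pump whose calls were all of a fall, as deposited and after scaling. It was at 27.1, 28.4 and 31.0 TPM at E12.5, 26.5, 20.4 and 23.3 at P0, 9.82, 12.7 and 10.3 at P14, and 7.35, 4.72 and 6.71 at A6m. Each age lay below the one before it, without overlap. P0 against E12.5 did not pass the test (-0.30, SE 0.15, limma adjusted p = 0.11).

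The falls of Atp2b4 came after birth. P14 against P0 gave -1.03 (SE 0.15, limma adjusted p = 0.000236), or -0.55 after scaling. A6m against P14 gave -0.73 (SE 0.15, limma adjusted p = 0.00602), or -0.70 after scaling. A6m against E12.5 gave -2.05 (SE 0.15, limma adjusted p = 2.41e-07), or -1.27 after scaling. All 10 endothelial markers fell in A6m against E12.5, where 62.0% of all tested genes did. So did 7 of the 8 mural and smooth muscle markers and 6 of the 6 erythroid ones. After scaling, 10, 6 and 6 fell, in the same order of lists. The part of these cells in the result was not tested. Exons of Atp2b4 overlap Mir6903 on the same strand.

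**Figure D2:**
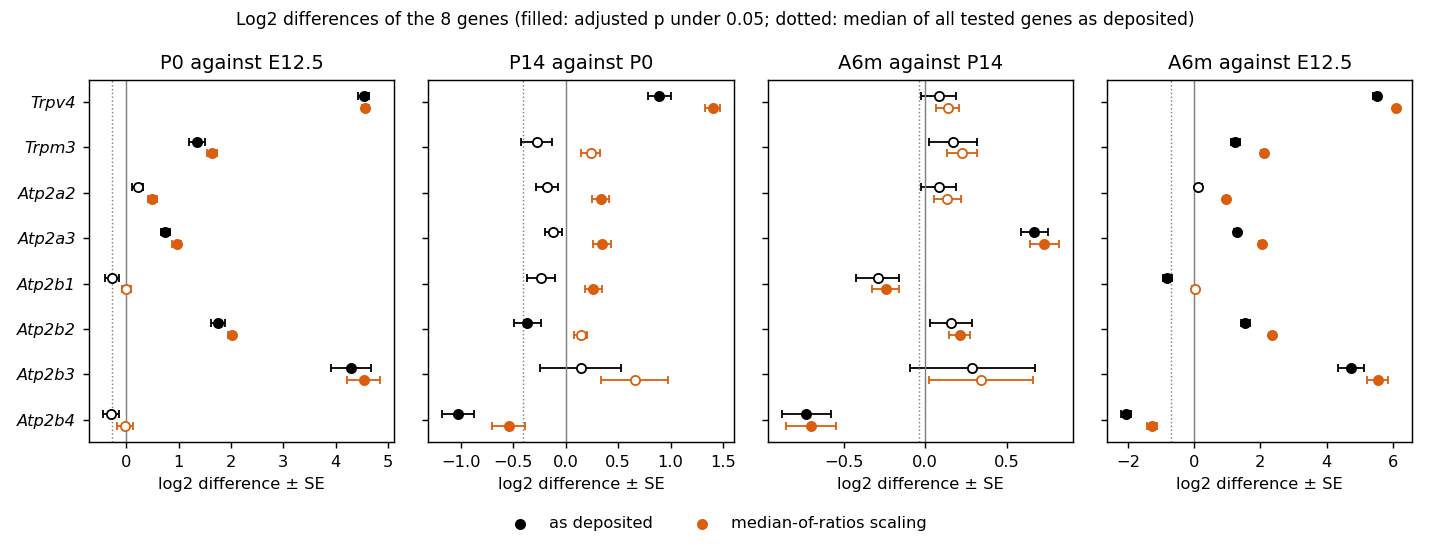
Log2 differences with their standard errors for the 8 genes between ages, as deposited and after median-of-ratios scaling. Trpv4 at 4.53 and Atp2b3 at 4.29 lead P0 against E12.5, and Atp2b4 lies below 0 after birth on either scale.

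Because shares within a family are taken inside each library, they do not depend on its scale. The 4 plasma membrane pumps summed to 105 ± 23.2, 346 ± 12.9, 339 ± 18.5 and 390 ± 19.8 TPM in order of age (SD, n = 3 each). Atp2b1 was the main transcript at E12.5 with 44.7% ± 0.898 of the sum, followed by Atp2b4 with 28.2% ± 4.77, Atp2b2 with 15.7% ± 0.243 and Atp2b3 with 11.3% ± 5.58. Atp2b3 held 65.9% ± 0.663 at P0, 74.4% ± 0.498 at P14 and 79.1% ± 0.392 at A6m. The Atp2b3 shares of the 4 ages did not overlap, and the lowest E12.5 share (4.98%) was again in replicate 1.

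The other shares of the family moved the other way or little. Atp2b1 made 10.9% ± 0.595, 9.42% ± 0.169 and 6.66% ± 0.553 of the sum at P0, P14 and A6m, and Atp2b4 made 6.74% ± 0.693, 3.25% ± 0.610 and 1.60% ± 0.289. Atp2b2 stayed between 12.3% and 17.3% in every library. By transcript level the family was thus led by Atp2b3 from P0 on, and by Atp2b1 at E12.5.

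**Figure D3:**
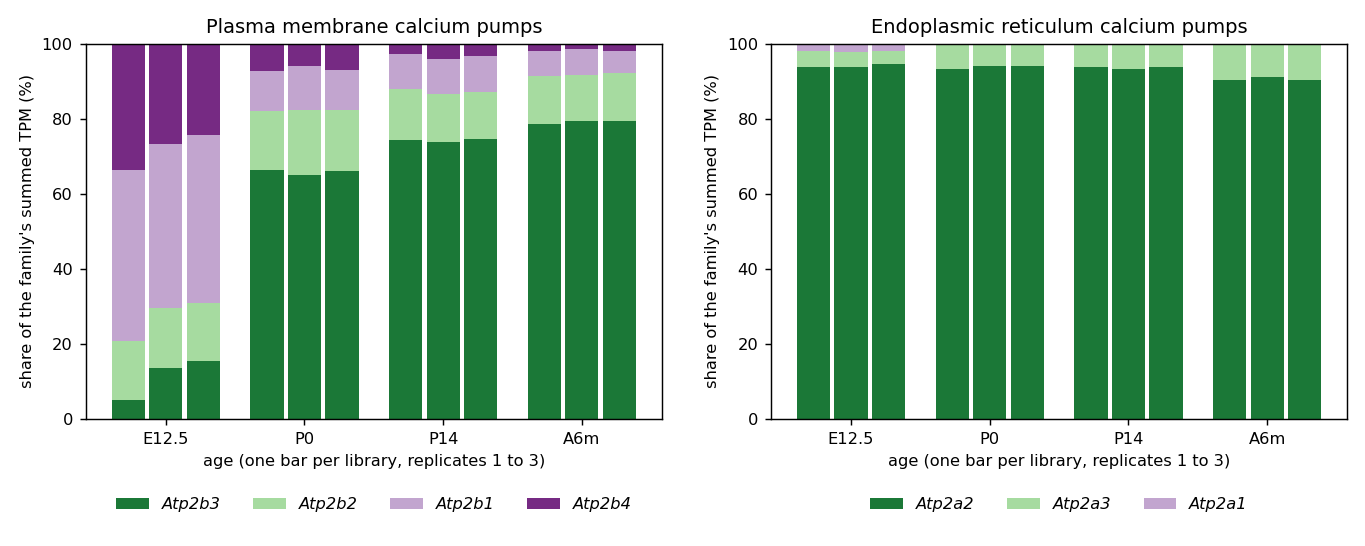
Share of each gene, in percent, in the summed TPM of its pump family, with 1 stacked bar per library from E12.5 to A6m, for the plasma membrane pumps and the endoplasmic reticulum pumps. Atp2b3 holds 79.1% of the plasma membrane family on average at A6m, against 11.3% at E12.5, while Atp2a2 holds at least 90.3% of the reticulum family in every library.

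Of the pumps of the endoplasmic reticulum, Atp2a2 (SERCA2; ENSMUSG00000029467.15, chr5:122453513-122502225, minus strand), the form found in most tissues, was steady. It was at 111, 115 and 152 TPM at E12.5, 147, 146 and 143 at P0, 140, 119 and 126 at P14, and 140, 138 and 130 at A6m. The highest value was in E12.5 replicate 3, which lay above every other library, and the E12.5 libraries overlapped all later ages. The P0 libraries lay just above those of P14 and A6m, which overlapped. Differences between ages ran from -0.18 (P14 against P0) to 0.22 (P0 against E12.5), each with SE 0.11, and the F-test was not passed (limma adjusted p = 0.261). Without E12.5 replicate 3, P0 against E12.5 gave 0.36 and P14 against P0 gave -0.18 (limma adjusted p of 0.00161 and 0.0345).

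Relative to the median gene Atp2a2 was higher at each later age than at E12.5. After scaling, P0 against E12.5 gave 0.50 (limma adjusted p = 0.000299), P14 against P0 gave 0.33 (limma adjusted p = 0.00689) and A6m against E12.5 gave 0.97 (limma adjusted p = 9.32e-07). P14 against P0 and A6m against P0 were below 0 as deposited and above 0 under the 3 scalings tried.

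Atp2a3 (SERCA3; ENSMUSG00000020788.15, chr11:72961169-72993044, plus strand), known from platelets, lymphoid cells and some epithelia, was lower in level but rose in steps. It was at 5.12, 4.97 and 5.34 TPM at E12.5, 10.2, 9.04 and 8.75 at P0, 8.89, 8.61 and 8.03 at P14, and 15.0, 13.5 and 13.9 at A6m. E12.5 was lowest without overlap, P0 and P14 overlapped, and A6m was highest without overlap. It rose in P0 against E12.5 (0.75, SE 0.08, limma adjusted p = 1.77e-05) and in A6m against P14 (0.67, SE 0.08, limma adjusted p = 0.000271). P14 against P0 gave -0.12 (SE 0.08, limma adjusted p = 0.246) as deposited and 0.35 after scaling (limma adjusted p = 0.0101).

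Beside these levels stand the markers of the cells known for Atp2a3. Platelet markers summed to 224 to 335 TPM at E12.5, 25.7 to 35.0 at P0, 8.27 to 12.6 at P14 and 3.64 to 4.81 at A6m, and lymphocyte markers to 3.73 to 6.44, 4.30 to 5.58, 1.17 to 2.26 and 1.36 to 2.51 TPM, with 1 of the 7 lymphocyte markers high enough to be tested. The sum of the epithelial markers other than Ttr and Enpp2, given above, was lowest at E12.5 and highest at A6m. Taken singly, Kl, Kcnj13 and Prlr had their highest mean at A6m and Cldn2 at P14. Folr1, Otx2, Clic6, Aqp1, Tmem72 and Slc4a5 had theirs at P0. The part of any of these cells in the course of Atp2a3 was not tested. Atp2a3 made 3.91% ± 0.510, 6.04% ± 0.405, 6.23% ± 0.458 and 9.42% ± 0.458 of the family sum over the ages, and Atp2a2 94.1% ± 0.568, 93.9% ± 0.449, 93.7% ± 0.392 and 90.6% ± 0.455. Atp2a1, the form of fast skeletal muscle, made 1.95% ± 0.225, 0.103% ± 0.0501, 0.0878% ± 0.0837 and 0.0131% ± 0.0117.

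**Figure D4:**
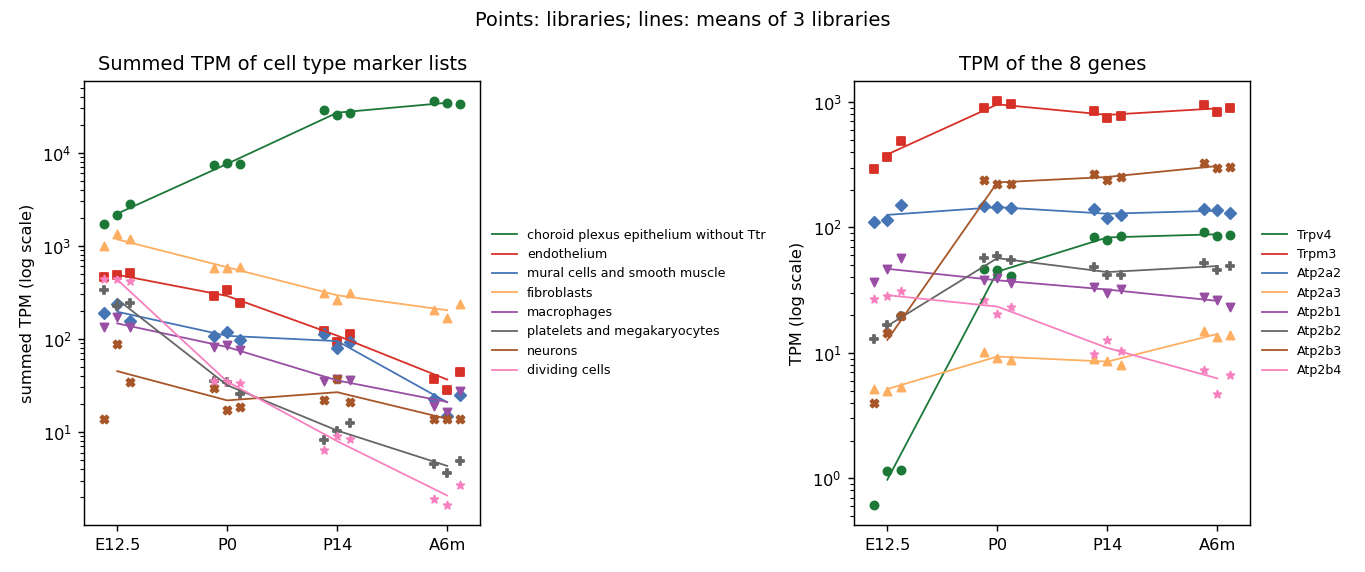
Summed TPM of 8 marker lists and TPM of the 8 genes on log scales, by age; points are libraries and lines join the means of 3. The epithelial sum without Ttr is lowest at E12.5 (1703 to 2792 TPM), while the endothelial sum is lowest at A6m (27.9 to 44.4 TPM).

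For each gene, the 2 genes with the nearest course were sought among 9864 candidates, by the root mean square difference in log2(TPM + 1) over the 12 libraries after centring. Nearest to Trpv4 were Ephx1 (microsomal epoxide hydrolase, 0.23) and Cryab (a small heat shock protein, 0.30). Ephx1 was at 6.47 ± 0.861, 143 ± 7.41, 211 ± 6.94 and 252 ± 15.5 TPM over the ages. Nearest to Atp2b3 were Tmem72 (0.29), itself an epithelial marker here, and Ace (angiotensin-converting enzyme, 0.37). Tmem72 was at 4.29 ± 2.11, 140 ± 5.90, 112 ± 9.51 and 130 ± 4.70 TPM, thus also low at E12.5 only.

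For Trpm3, Gaa (lysosomal alpha-glucosidase, 0.10) was among the nearest, and for Atp2b2 the nearest were Aldh6a1 (a mitochondrial dehydrogenase, 0.07) and the lysosomal protease gene Ctsd (0.08). Atp2a3 ran with Ablim1 and Npc2 (0.11 each), and Atp2b4 with Fhl1 and Ubald2 (0.16 each). Atp2b1 ran with Upf3b and Socs4 (0.09 each), and Atp2a2 with Pnpla8 (0.06) and Dnajc18 (0.07). A small value is easier to reach for a gene that changes little, so these values do not compare across members.

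The other genes of calcium handling were taken as 6 lists. Among all tested genes, 18.6% rose and 43.7% fell in P0 against E12.5. The shares were 5.33% and 53.5% in P14 against P0, and 8.78% and 12.1% in A6m against P14. The share that fell in P14 against P0 was near that of all genes for the TRP channels, the release and entry genes and the other pumps and exchangers. Of 26 TRP channels other than Trpv4 and Trpm3, 11 were tested, the rest being below the filter. Of those 11, 7 rose and 4 fell in P0 against E12.5, 1 rose and 5 fell in P14 against P0 (2 and 2 after scaling), and 2 rose and 3 fell in A6m against P14. The median difference of the 11 in P0 against E12.5 was 0.62, beside -0.27 for all tested genes.

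Trpm5, a calcium-activated cation channel of taste cells, was at 8.81 ± 3.90, 21.5 ± 1.03, 5.15 ± 0.415 and 1.40 ± 0.400 TPM over the ages. It rose in P0 against E12.5 (1.27, SE 0.23, limma adjusted p = 0.000628) and fell in P14 against P0 (-1.87, SE 0.23, limma adjusted p = 8.31e-05), so unlike Trpv4 it was highest at birth. Mcoln3, a channel of endosomes and lysosomes, rose in A6m against E12.5 (2.50, SE 0.17, limma adjusted p = 1.09e-07), as did Trpc1 (1.57, SE 0.13, limma adjusted p = 8.31e-07). Trpc6, a channel opened by diacylglycerol, fell in A6m against E12.5 (-1.52, SE 0.13, limma adjusted p = 6.39e-07), at 0.207 ± 0.0174 TPM at A6m and 2.50 ± 0.512 TPM at E12.5.

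Of the 13 genes for calcium release and store-operated entry, 11 were tested. In P0 against E12.5, 6 rose and 2 fell, in P14 against P0 1 rose and 5 fell (6 and 1 after scaling), and in A6m against P14 2 rose and 0 fell. Itpr1, a release channel of the endoplasmic reticulum opened by inositol trisphosphate, was at 66.3 ± 18.0, 203 ± 20.7, 203 ± 15.8 and 260 ± 2.80 TPM over the ages and rose in P0 against E12.5 (1.64, SE 0.16, limma adjusted p = 6.53e-06). Stim1, the sensor of store depletion, rose alike (1.26, SE 0.10, limma adjusted p = 1.19e-06), as did the entry channel subunit Orai2 (0.97, SE 0.11, limma adjusted p = 2.05e-05). Itpr3 fell (-1.16, SE 0.10, limma adjusted p = 2.46e-06), at 1.27 ± 0.0595 TPM at P0 and 4.08 ± 0.171 TPM at E12.5.

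Of 13 other calcium pumps and exchangers, 10 were tested, and 5 rose and 4 fell in P0 against E12.5, 2 rose and 5 fell in P14 against P0 (4 and 5 after scaling), and 3 rose and 2 fell in A6m against P14. Slc24a5, which exchanges calcium for sodium with potassium and is known from pigment organelles, was at 7.13 ± 1.98, 78.0 ± 3.52, 99.7 ± 10.3 and 157 ± 10.2 TPM. It rose in P0 against E12.5 (3.31, SE 0.14, limma adjusted p = 2.32e-08). Slc24a4, of the same exchanger family, was at 0.222 ± 0.0247, 13.5 ± 1.38, 17.8 ± 1.71 and 15.7 ± 0.637 TPM and also rose at that step (3.56, SE 0.10, limma adjusted p = 1.65e-09). Slc24a3 was highest at P14, at 10.1 ± 0.640 TPM, and fell in A6m against P14 (-2.29, SE 0.09, limma adjusted p = 1.53e-07). Tmem165, a Golgi protein of calcium and manganese balance, fell at each step and in A6m against E12.5 (-1.75, SE 0.08, limma adjusted p = 8.13e-09).

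All 11 genes of mitochondrial calcium uptake were tested. Among all tested genes 43.7% fell as deposited in P0 against E12.5, 53.5% in P14 against P0 and 12.1% in A6m against P14. For a list of 11 genes, the shares that fell in the first and last of these steps were not far from those. In P14 against P0 the share was lower. As deposited, 2 rose and 6 fell in P0 against E12.5, 0 rose and 3 fell in P14 against P0, and 0 rose and 2 fell in A6m against P14, but after scaling 5 rose and 1 fell, 7 rose and 0 fell, and 2 rose and 1 fell at the same steps. Mcu, the pore of the uniporter, fell in A6m against E12.5 on either scale (-1.64, SE 0.10, limma adjusted p = 5.31e-08, and -0.83 after scaling), at 8.97 ± 0.537 TPM at A6m and 30.1 ± 3.39 TPM at E12.5. For its regulator Micu2 the sign turned, with -0.62 as deposited and 0.21 after scaling, and likewise for Vdac3 of the outer membrane (-0.67 as deposited and 0.18 after scaling).

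Of 15 regulators and partners of the pumps, 13 were tested, and 3 rose and 2 fell in P0 against E12.5, 6 rose and 5 fell in P14 against P0 (8 and 1 after scaling), and 0 rose and 4 fell in A6m against P14. Bsg and Nptn encode accessory subunits that carry the plasma membrane pumps to the cell surface. Bsg was at 609 ± 84.3, 2310 ± 41.9, 2269 ± 88.1 and 2429 ± 97.1 TPM and rose in P0 against E12.5 (1.93, SE 0.09, limma adjusted p = 3.29e-08). Nptn was at 127 ± 13.7, 156 ± 2.49, 302 ± 22.8 and 324 ± 1.43 TPM, with its larger rise in P14 against P0 (0.95, SE 0.08, limma adjusted p = 7.46e-06). The calmodulin gene Calm2 fell in P0 against E12.5 (-0.84, SE 0.07, limma adjusted p = 1.24e-06), and Erp29, a chaperone of the endoplasmic reticulum, fell in A6m against P14 (-0.81, SE 0.08, limma adjusted p = 4.36e-05).

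Of 18 effectors and partners of Trpv4, 17 were tested. In P0 against E12.5, 8 rose and 5 fell, and in A6m against P14, 3 rose and 1 fell. In P14 against P0, 1 rose and 9 fell (4 and 6 after scaling). The share that fell at that step as deposited was near the 53.5% of all tested genes. Stk39, the kinase SPAK that acts on chloride cotransporters, was at 99.2 ± 22.6, 394 ± 15.8, 425 ± 15.1 and 473 ± 20.2 TPM and rose in P0 against E12.5 (2.01, SE 0.14, limma adjusted p = 4.13e-07). Wnk4, a kinase upstream of SPAK, rose at the same step (2.15, SE 0.17, limma adjusted p = 1.06e-06) and fell in P14 against P0 (-2.05, SE 0.17, limma adjusted p = 5.92e-06), at 6.34 ± 1.02 TPM at P14 and 29.2 ± 1.54 TPM at P0. Ano1, a calcium-activated chloride channel known in mouse choroid plexus as a partner of Trpv4, fell in P14 against P0 (-1.34, SE 0.13, limma adjusted p = 1.77e-05), at 0.737 ± 0.108 TPM at P14 and 3.41 ± 0.394 TPM at P0. Kcnn3, a calcium-activated potassium channel, fell in P0 against E12.5 (-2.23, SE 0.14, limma adjusted p = 2.26e-07), and again in P14 against P0 (-0.68, limma adjusted p = 0.00181). It rose in A6m against P14 (0.57, limma adjusted p = 0.0144), at 0.882 ± 0.165 TPM at A6m and 0.268 ± 0.0766 TPM at P14. Ano1 and Kcnn3 were both under 1 TPM on average at A6m, where Trpv4 and also Stk39 were at their highest means.

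**Figure D5:**
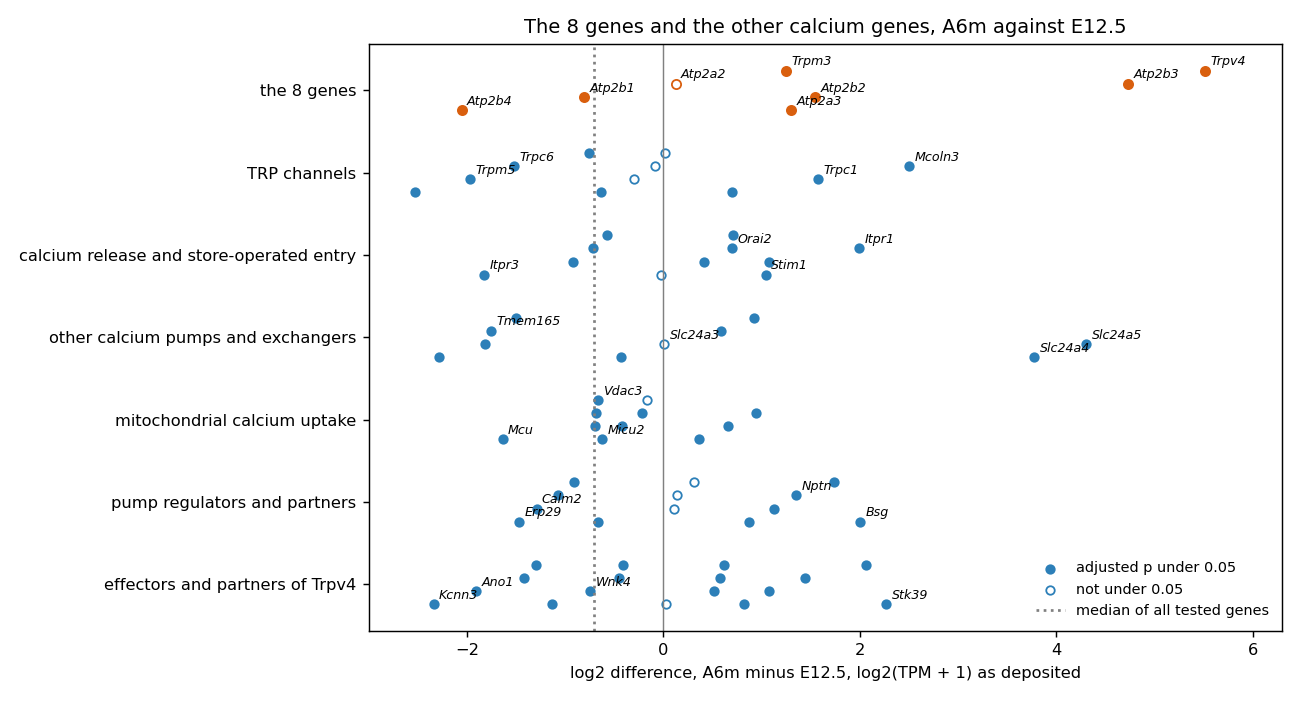
Log2 difference of A6m minus E12.5, as deposited, for each tested gene of the 6 calcium lists and for the 8 genes; filled points had a limma adjusted p under 0.05, the dotted line is the median of all tested genes (-0.71), and the genes named in the text are labelled. Trpv4 at 5.51 and Atp2b3 at 4.73 lie farthest to the right, followed by Slc24a5 at 4.30 and Slc24a4 at 3.77.

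In A6m against E12.5 as a whole, 3 of 11 TRP channels rose and 5 fell, 6 of 11 genes of release and store-operated entry rose and 4 fell, and 4 of 10 other pumps and exchangers rose and 5 fell. Of the mitochondrial genes 3 of 11 rose and 7 fell, of the pump regulators 5 of 13 rose and 5 fell, and of the Trpv4 effectors and partners 8 of 17 rose and 8 fell. Among all tested genes 15.2% rose and 62.0% fell in that comparison, and the share of the mitochondrial genes that fell was near that of all genes. After scaling, 6 TRP channels rose and 3 fell, 8 release and entry genes rose and 2 fell, and 5 other pumps and exchangers rose and 4 fell. On that scale 9 mitochondrial genes rose and 1 fell, 8 pump regulators rose and 3 fell, and 11 effectors and partners of Trpv4 rose and 5 fell. Of all calls on that scale 49.7% were higher. The shares of all tested genes that rose or fell on it are not given, and the 15.2% and 62.0% are as deposited.

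Counting of reads was not stated to use strand. Exons of Trpm3 are overlapped by 2 annotated genes on the opposite strand and those of Atp2a2 by 1, and without strand reads from a gene and its antisense partner cannot be told apart.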

How the data were processed

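RNA of mouse choroid plexus was sequenced at 4 ages with 3 libraries each. The deposited values are TPM, computed by the authors with kallisto on GRCm38 per the submitters' processing notes, which give no version. The annotation release, the step from transcripts to genes and the use of strand are not given in the sources used here. TPM keeps no counts, so depth is unknown and no counting interval or count test was possible. Another 7 columns of the table were not used here. Separate specimens are stated only in the design text, so p-values measure the spread between these libraries, which may be in part technical.

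The 17422 of 52459 genes with TPM of at least 1 in at least 3 libraries were tested as log2(TPM + 1) with limma 3.58.1 in R 4.3.3 (4 group means, eBayes with trend, 8 residual degrees of freedom, two-sided, Benjamini-Hochberg over all tested genes, called under 0.05). The fit was checked on simulated data. The 8 genes, the 6 calcium lists and the marker lists were chosen with earlier results of these data known. All 8 genes are named, with up to 4 tested genes per calcium list by the largest F over the 4 ages and the 2 genes most alike to each member among named genes of at least 10 TPM in some age. The other members of the lists are given as counts. Some genes that this rule names are not reported here.

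As alternatives, 0.1 or 5 was added in place of 1, the filter was dropped or set to a mean of 5 TPM, and the scale was changed in 3 ways: by the median of ratios (19075 genes, those with no 0), by quantiles, and by leaving the 10 most abundant genes out of the sum. The fit was also limited to the 6 libraries compared, given the replicate number as a block, and repeated without each library in turn. Positions and overlaps are from GENCODE M21 and sequences from RefSeq on GRCm38.p6, both builds of GRCm38. Plots used matplotlib 3.10.9 under Python 3.11.15.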

Additional observations from a re-analysis of the deposited data

How the results depend on the processing

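All 126 alternative values of Trpv4, and likewise those of Atp2b4, kept their direction and their side of the threshold, and over the 8 genes 940 values did so, 31 gained a call, 10 lost one and 27 changed sign. The count of all genes called stayed within 1.5 times in all 146 alternatives. After median-of-ratios scaling the number of the 8 genes called was 5 in P14 against P0, 4 in A6m against P14 and 7 in A6m against P0, and with only the 6 libraries of the comparison it was 5 and 4 in the first pair of these, beside 3, 2 and 4 as deposited. Leaving out each library in turn gave 2 to 5 in P14 against P0 and 2 to 4 in A6m against P14, and Atp2a2 in P14 against E12.5 ran from -0.041 to 0.18.

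Of the 27 changes of sign, 24 came with another scaling, and 3 were Atp2a2 in P14 against E12.5, which turned to -0.041 or -0.018 on leaving out replicate 1 or 2 of E12.5 and to -0.024 on leaving out replicate 1 of P14. Most were of differences not called as deposited, but Atp2b1 in P14 against E12.5, A6m against P0 and A6m against E12.5 (-0.51, -0.53 and -0.81) and Atp2b2 in P14 against P0 (-0.37) had been called. The cause was not tested. With median-of-ratios scaling they were, in P14 against P0, Trpm3 (0.24), Atp2a2 (0.33), Atp2a3 (0.35), Atp2b1 (0.26) and Atp2b2 (0.14), in A6m against P0, Trpm3 (0.46), Atp2a2 (0.47), Atp2b1 (0.020) and Atp2b2 (0.35), and for Atp2b1 also 0.0046 in P0 against E12.5, 0.27 in P14 against E12.5 and 0.025 in A6m against E12.5. Without the 10 most abundant genes they were Atp2b1 in P0 against E12.5 (0.013), Atp2a2 (0.027) and Atp2a3 (0.069) in P14 against P0, and Trpm3 (0.084) and Atp2a2 (0.094) in A6m against P0. With quantile normalization they were Atp2a2 (0.076), Atp2a3 (0.37) and Atp2b1 (0.13) in P14 against P0, Atp2b1 in P14 against E12.5 (0.085), and Trpm3 (0.088), Atp2a2 (0.13) and Atp2b2 (0.098) in A6m against P0.

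No pairing by replicate number was seen: deviations of same-numbered libraries correlated at -0.08 to 0.11, with 1 of 18 pairs over 0.1. With 3 libraries per age this cannot exclude a pairing. The replicate block changed no call of the 8 genes and left the number called in P0 against E12.5 at 5. Depth is unknown, and 3 libraries per age limit the precision, most for Trpv4 and Atp2b3 at E12.5.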
